A study of Mus musculus with 6 samples.

Results

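The neurons described here came from the hypothalamus of leptin-deficient ob/ob mice on chow (the OB pool) and were split by the transmitter genes they expressed and by treatment with rapamycin or vehicle. They numbered 2618 of the 12284 barcodes of the OB pool and of the 34542 barcodes of the whole series. Members were chosen by counts of unique molecular identifiers (UMIs, 1 per captured RNA molecule). A neuron was GABAergic with at least 2 UMIs of Gad1, Gad2 and Slc32a1 together and none of Slc17a6, and glutamatergic with at least 1 UMI of Slc17a6 and none of the other set. Treatment was called from hashtags, antibodies against the nuclear pore that carry a DNA barcode. Each tag's log2(count + 1) was centred on its mean over the pool, and the tag at least 1 above the other gave the call. Tag 1 stood for rapamycin and tag 2 for vehicle, per the deposited key. GABAergic neurons numbered 721 with rapamycin and 491 with vehicle, and glutamatergic neurons 718 with rapamycin and 688 with vehicle.

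The study gave rapamycin or vehicle to chow-fed ob/ob mice, to mice with diet-induced obesity (DIO) and to chow-fed mice, and sorted hypothalamic nuclei for the neuronal protein NeuN. Each pool held both treatments, with 1 hashtag for each. The labels name no strain, age, sex, dose, duration or number of animals. Each treatment in a pool was therefore 1 sample with no replicate, and cells were not counted as replicates. No difference between treatments was tested, and all intervals given cover counting error alone, not differences between mice. In these sums, fewer nuclei of a type and less RNA per nucleus cannot be told apart.

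Leptin, made by fat, acts through its receptor on hypothalamic neurons to lower food intake, and ob/ob mice make no functional leptin and become severely obese. Rapamycin, with the protein FKBP12 (gene Fkbp1a), inhibits mTORC1, the kinase complex that drives protein synthesis and restrains autophagy when nutrients and growth factors are plentiful. GABAergic hypothalamic neurons make GABA with the enzymes encoded by Gad1 and Gad2 and load it into vesicles with the product of Slc32a1. Glutamatergic ones load glutamate with the product of Slc17a6. Both classes release peptides from dense-core granules, in which convertases cut the precursors.

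The RefSeq promoters of 3 genes (GRCm38.p6, from 250 bases before the start site to 50 after it, each on the strand of the gene) are shown because Hsph1 and Scg2 hold a motif searched for and Pcsk1n, which differed in both classes, holds neither. Scg2 and Pcsk1n were among the genes with the clearest differences, and Hsph1 was chosen for its motif. Capitals mark matches to a heat shock element or to the cAMP response element.
Hsph1 (chr5:149636287-149636586, minus strand): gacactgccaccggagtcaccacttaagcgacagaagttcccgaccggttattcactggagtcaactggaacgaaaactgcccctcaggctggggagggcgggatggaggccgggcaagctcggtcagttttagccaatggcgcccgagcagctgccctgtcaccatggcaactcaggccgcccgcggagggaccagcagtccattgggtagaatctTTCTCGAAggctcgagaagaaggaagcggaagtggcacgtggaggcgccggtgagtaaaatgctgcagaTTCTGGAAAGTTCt
Scg2 (chr1:79439977-79440276, minus strand): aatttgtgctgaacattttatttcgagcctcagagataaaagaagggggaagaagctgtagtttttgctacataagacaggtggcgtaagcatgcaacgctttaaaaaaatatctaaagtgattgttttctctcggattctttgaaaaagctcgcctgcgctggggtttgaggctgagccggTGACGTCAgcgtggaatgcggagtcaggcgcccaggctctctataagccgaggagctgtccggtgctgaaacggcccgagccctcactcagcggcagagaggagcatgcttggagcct
Pcsk1n (chrX:7919572-7919871, plus strand): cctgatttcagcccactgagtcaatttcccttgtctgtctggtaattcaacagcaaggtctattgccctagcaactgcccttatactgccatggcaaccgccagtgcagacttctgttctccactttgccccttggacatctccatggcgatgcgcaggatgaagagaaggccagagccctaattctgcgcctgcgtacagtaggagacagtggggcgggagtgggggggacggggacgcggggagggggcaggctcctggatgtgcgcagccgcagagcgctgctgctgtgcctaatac
In Hsph1, a cytosolic chaperone gene shown at the upstream of its 2 listed start sites, the capitals are a heat shock element of 3 units (GAANNTTC followed by NNGAA, found here on the other strand) at the end of the window, which holds the 2-unit forms within it, and a separate 2-unit form (TTCNNGAA) upstream. The 3-unit form was in 0.603% of the 32851 RefSeq promoters searched on both strands, or 0.662% of their 27025 genes. Of the 29 cytosolic heat shock chaperone genes listed, 23 had a promoter among these, and 5 of the 23 (21.7%) held the form. Hspa8 had no such promoter and was not searched. In Scg2, a granule protein gene, TGACGTCA began 68 bases before the start site, a motif found in 1.79% of promoters and in 0 of those 23 chaperone genes. Its 5-letter core TGACG was in 13 of the 23 chaperone genes (56.5%), against 23.0% of all 27025 genes. Pcsk1n held no TGACG on either strand, which 20.8% of promoters did. A match describes letters in the window and no binding was measured.

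The levels of the genes that chose the members follow in part from the class rule, so they are no check of class identity. Over both treatments, GABAergic neurons carried Gad1 at 245, Gad2 at 389 and Slc32a1 at 36.5 CPM (the UMIs of a gene scaled to a common total per sum), and glutamatergic neurons carried Slc17a6 at 323 CPM, each at 0 in the other class by the rule. Between treatments, the values that chose the members were close. Gad1 was at 249.1 CPM with rapamycin and 240.2 CPM with vehicle, Gad2 at 396 and 379 CPM, Slc32a1 at 38.1 and 34.2 CPM, and Slc17a6 at 310.5 and 336 CPM. The nuclei just inside the rule were many. Of OB neurons with a call and no Slc17a6, 1389 had 1 UMI of the GABAergic genes and stayed out, against 667 with 2 UMIs. Of those without GABAergic UMIs, 999 had 1 UMI of Slc17a6 and entered, while 4149 had none. At the tag cut, 47 neurons with tag 1 higher and 26 with tag 2 higher lay within 0.2 outside it, and 42 and 36 lay within 0.2 inside.

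Rapamycin members had median counts of 1081 of tag 1 and 114 of tag 2 in the GABAergic class, and vehicle members 158 of tag 1 and 378 of tag 2, so the tags were less far apart in vehicle nuclei. Of all members, 1893 were also called as singlets by HTODemux, a caller with a quantile cutoff, with the same treatment in every case. It read the same tag counts, so this is no independent check. The same caller left 670 members negative, 16 of them rapamycin and 654 vehicle, and marked 55 as doublets of hashtags. Sequencing gave the rapamycin and vehicle sums 2913976 and 2048496 UMIs in the GABAergic class, and 3211379 and 2872611 UMIs in the glutamatergic class. Median UMIs per nucleus were 3628 with rapamycin and 3868 with vehicle in GABAergic neurons, and 4000.5 and 3944.5 in glutamatergic neurons. A count of 0 in the GABAergic sums allows a level of up to 1.03 CPM with rapamycin and 1.46 CPM with vehicle. The OB pool was shallower than the others, with a median of 2805 UMIs per nucleus against 5826 in chow and 5572 in DIO. Between 31 and 38 cell barcodes were shared by each pair of pools.

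GABAergic neurons made up 16.3% of rapamycin neurons (95% Clopper-Pearson interval 15.2 to 17.4) and 12.6% of vehicle neurons (11.6 to 13.7). Glutamatergic neurons made up 16.2% with rapamycin (15.2 to 17.4) and 17.6% with vehicle (16.5 to 18.9). After each nucleus was thinned to 1500 UMIs, the shares were 5.86% (5.17 to 6.61) with rapamycin and 4.32% (3.69 to 5.02) with vehicle for GABAergic neurons, and 8.49% and 9.63% for glutamatergic neurons. In the other pools the unthinned GABAergic shares were 22.7% with rapamycin and 22.8% with vehicle in chow, and 22.7% and 24.99% in DIO. Most OB neurons, 65.2% with rapamycin and 68.1% with vehicle, met neither rule.

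In GABAergic neurons, the genes whose intervals lay highest above 0 were, in order, Scg2, Hspa8, Sft2d3, Pcsk1n, Olfm1, Ube2f, Tmcc3, Ubb, Ndufaf4 and Mcmdc2. Scg2, the granule protein secretogranin II that is also cut into the peptide secretoneurin, and Hspa8, the constitutive cytosolic Hsp70 chaperone, were both more than 2-fold higher in these sums. Pcsk1n, the proSAAS precursor that inhibits the convertase PC1/3, and Ubb, a polyubiquitin gene, were higher by less. The transcription cofactor genes Dach1 and Dach2, the neuropeptide S receptor gene Npsr1 and the kainate receptor gene Grik1 were lower. A gene was measured when both sums together held at least 100 UMIs, and a difference was counted at 1.5-fold. Of 7294 genes measured, 130 were at least 1.5-fold higher (1.78%) and 56 at least 1.5-fold lower (0.768%). The median log2 ratio, rapamycin over vehicle, was 0.03 and the middle 90% of genes ran from -0.32 to 0.43. The higher genes held a median of 135.5 UMIs and the lower ones 130.0, against 267 for all measured, so the genes named are those whose 95% intervals lay farthest from 0, and this choice fixes that their intervals exclude 0.

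Scg2 (chr1:79434366-79440026) had 275 UMIs in rapamycin GABAergic neurons and 88 UMIs in vehicle ones. These gave 94.4 CPM with rapamycin and 43.0 CPM with vehicle, giving a log2 ratio of 1.14 (95% interval 0.78 to 1.499). The counts were spread over 199 rapamycin and 73 vehicle nuclei, so no single nucleus carried them. Hspa8 (chr9:40801276-40805202) had 199 UMIs with rapamycin and 61 with vehicle, or 68.3 and 29.8 CPM, giving a log2 ratio of 1.198 (0.78 to 1.64). Hspa8 has near-identical pseudogene copies between which reads can be split. Pcsk1n (chrX:7919822-7924410) had 250 UMIs with rapamycin and 95 with vehicle, or 85.8 and 46.4 CPM, giving a log2 ratio of 0.89 (0.54 to 1.24). RefSeq places the protein-coding gene Eras over part of it. Ubb stood at 113 CPM with rapamycin and 68.3 CPM with vehicle, giving a log2 ratio of 0.72 (0.43 to 1.02). Ube2f, a conjugating enzyme for the ubiquitin-like protein NEDD8, had 159 UMIs with rapamycin and 59 with vehicle, giving a log2 ratio of 0.92 (0.48 to 1.38). These genes were chosen on these values, so their shared direction is no finding.

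The other genes of that rank had mixed roles. Sft2d3, a vesicle transport gene, had 90 UMIs with rapamycin and 27 with vehicle, giving a log2 ratio of 1.23 (0.59 to 1.91). Olfm1, a secreted neuronal glycoprotein, had 108 and 37 UMIs and gave a log2 ratio of 1.04 (0.49 to 1.62). Ndufaf4, an assembly factor of respiratory complex I, had 210 and 86 UMIs and gave a log2 ratio of 0.78. Mcmdc2, known from meiotic recombination, had 235 and 98 UMIs and gave a log2 ratio of 0.75. Tmcc3, a membrane protein gene, was the most abundant of the group at 300.3 CPM with rapamycin and 196 CPM with vehicle, giving a log2 ratio of 0.61 (0.44 to 0.79).

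**Figure D1:**
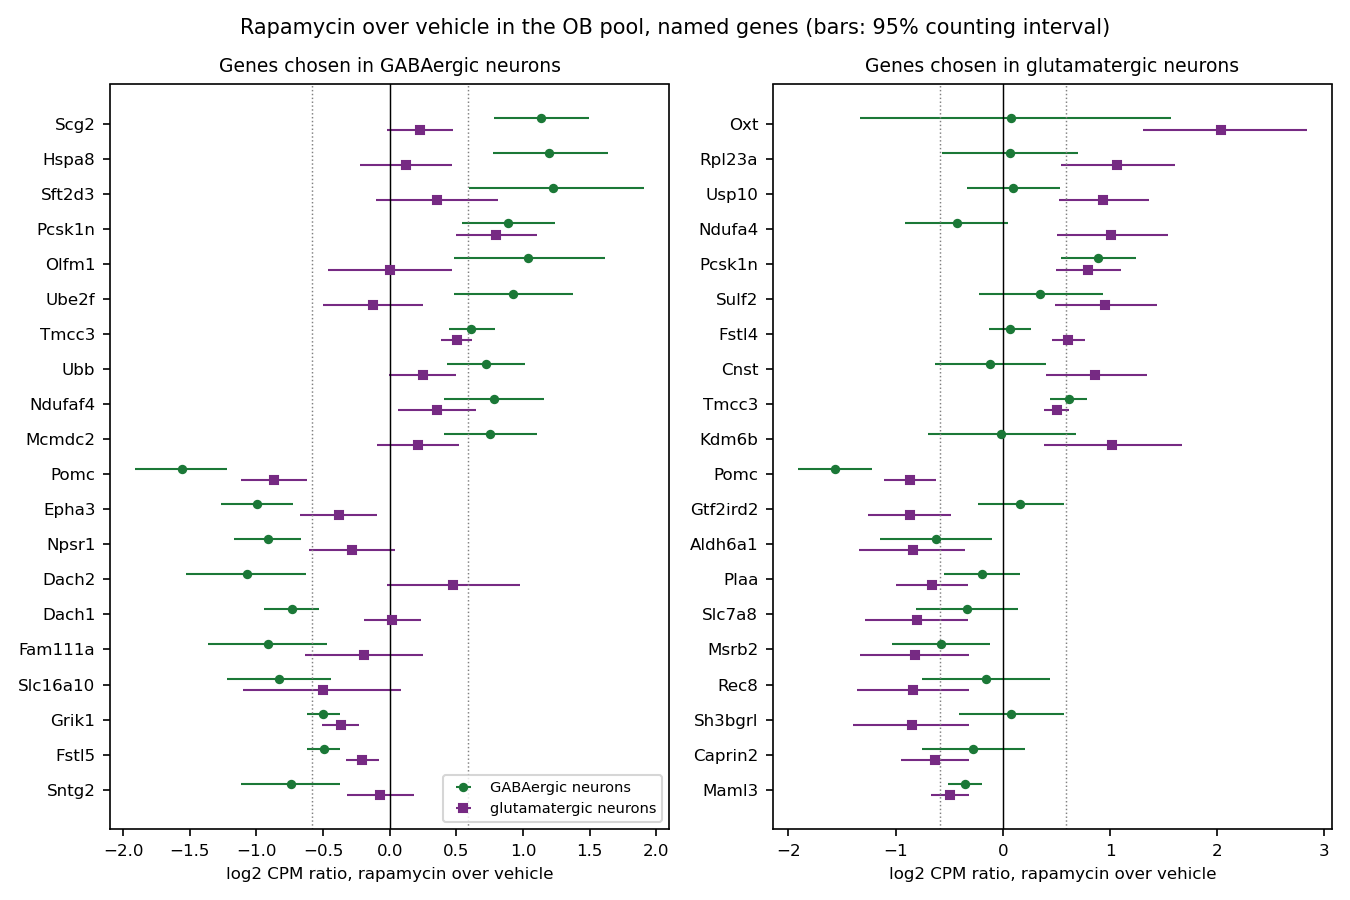
Log2 ratios of CPM, rapamycin over vehicle, for the genes chosen in GABAergic neurons (left) and in glutamatergic neurons (right). Circles are GABAergic and squares glutamatergic neurons, bars are 95% intervals for counting error, and dotted lines mark 1.5-fold. Scg2 and Hspa8 stand above 1 in GABAergic neurons and at 0.23 and 0.12 in glutamatergic neurons, while Pcsk1n and Tmcc3 are close in both.

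Among the lower genes, Npsr1 had 236 UMIs in rapamycin GABAergic neurons and 313 in vehicle ones, or 81.0 and 153 CPM, giving a log2 ratio of -0.92 (-1.17 to -0.67). Dach1 had 360 and 421 UMIs and gave a log2 ratio of -0.73 (-0.94 to -0.53), and Dach2 had 71 and 105 UMIs and gave a log2 ratio of -1.07 (-1.53 to -0.62). Both are transcription cofactors of development. Epha3, an ephrin receptor, had 195 and 273 UMIs and gave a log2 ratio of -0.99 (-1.27 to -0.72). Grik1 was at 357 CPM with rapamycin and 504 CPM with vehicle, giving a log2 ratio of -0.50 (-0.62 to -0.37), and Fstl5, a follistatin-like secreted protein, at 369.6 and 521 CPM. Slc16a10, a transporter of aromatic amino acids and thyroid hormone, had 101 and 126 UMIs and gave a log2 ratio of -0.83. Fam111a, a protease gene tied to DNA replication, had 77 and 102 UMIs and gave a log2 ratio of -0.91. Sntg2, a syntrophin, had 113 and 133 UMIs and gave a log2 ratio of -0.74.

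Pomc, the precursor of the satiety peptide alpha-MSH and of ACTH, had the lowest upper bound in both classes but rested on single nuclei. In GABAergic neurons it had 107 UMIs with rapamycin and 222 with vehicle, giving a log2 ratio of -1.56 (-1.91 to -1.22), and 87 of the vehicle UMIs came from 1 nucleus. Without that nucleus the log2 ratio was -0.85, and without cluster 44, an unnamed cluster led by Pomc, Oacyl, Pax7 and Tbx19, it was -0.04. In glutamatergic neurons Pomc had 225 UMIs with rapamycin and 367 with vehicle, giving a log2 ratio of -0.87 (-1.11 to -0.62). There 255 vehicle UMIs lay in 1 nucleus, and without it the log2 ratio was 0.84. Summed pituitary markers were lower with rapamycin as well: the 9 of that list summed to 10.3 CPM with rapamycin and 29.3 CPM with vehicle in GABAergic neurons, and to 11.5 and 21.6 CPM in glutamatergic neurons. Growth hormone (Gh) alone had 8 UMIs with rapamycin and 29 with vehicle in GABAergic neurons, and 11 and 30 in glutamatergic neurons, while Lhb was at 0 in GABAergic and Fshb at 0 in glutamatergic neurons. Some markers went the other way, with 9 and 5 UMIs of Tbx19 in GABAergic neurons and 16 and 13 of Pitx1 and 5 and 2 of Tshb in glutamatergic neurons. Pomc itself stood at 61.2 CPM in rapamycin and 250.4 CPM in vehicle glia of the same pool. The part of pituitary RNA in the Pomc values was not tested.

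In glutamatergic neurons, whose sums held more UMIs, a smaller share of the measured genes passed 1.5-fold. Of 8101 genes measured, 101 were at least 1.5-fold higher (1.25%) and 54 at least 1.5-fold lower (0.667%), with a median log2 ratio of 0.03. Oxt, the oxytocin precursor, had 87 UMIs with rapamycin and 19 with vehicle, or 27.1 and 6.61 CPM, giving a log2 ratio of 2.03 (1.31 to 2.83). These UMIs lay in 27 rapamycin and 15 vehicle nuclei, with at most 14 in 1 nucleus. Glia of the same pool, which should lack it, had Oxt at 14.7 CPM with rapamycin and 6.98 CPM with vehicle. The level in vehicle neurons was thus no higher than in glia. Avp, the vasopressin precursor made in neighbouring magnocellular neurons, had 253 and 199 UMIs and gave a log2 ratio of 0.19 (-0.09 to 0.46).

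Ndufa4, a subunit of cytochrome c oxidase, had 106 UMIs with rapamycin and 47 with vehicle, or 33.0 and 16.4 CPM, giving a log2 ratio of 1.01 (0.50 to 1.54). Usp10, a deubiquitinase, had 154 and 72 UMIs and gave a log2 ratio of 0.94 (0.52 to 1.36). Rpl23a, a ribosomal protein gene with many near-identical pseudogenes and an overlap with Tlcd1, had 103 and 44 UMIs and gave a log2 ratio of 1.07 (0.54 to 1.61). Both Pcsk1n, at 83.5 CPM with rapamycin and 48.0 CPM with vehicle, and Tmcc3, at 483 and 341 CPM, were higher here too, with log2 ratios of 0.80 (0.50 to 1.10) and 0.50 (0.39 to 0.62). Fstl4, a follistatin-like protein, was at 288 and 188 CPM, giving a log2 ratio of 0.61 (0.46 to 0.77). Sulf2, an extracellular sulfatase, Cnst, a connexin recycling protein, and Kdm6b, a histone H3K27 demethylase, had log2 ratios of 0.95, 0.86 and 1.01.

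Below vehicle, Gtf2ird2, a transcription factor of the TFII-I family, had 92 UMIs with rapamycin and 150 with vehicle, giving a log2 ratio of -0.87 (-1.26 to -0.48). Aldh6a1, an enzyme of valine breakdown that overlaps Bbof1, had 58 and 93 UMIs and gave a log2 ratio of -0.84 (-1.34 to -0.35). Slc7a8, a carrier of neutral amino acids, had 61 and 95 UMIs and gave a log2 ratio of -0.80 (-1.29 to -0.32). The others were Plaa at -0.66, Msrb2, which repairs oxidised methionine, at -0.82, Rec8, a meiotic cohesin, at -0.84, and Sh3bgrl at -0.85. Caprin2, an RNA-binding protein gene expressed in magnocellular neurons, was at -0.63 (-0.95 to -0.32), and Maml3, a Notch coactivator, at -0.49 (-0.67 to -0.32).

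Under a stricter class rule, which kept fewer nuclei, 26 of 55 values of named genes stayed within their interval, 25 left it and 4 past 1.5-fold turned sign. In the 119 rapamycin and 82 vehicle neurons with at least 4 UMIs of the GABAergic genes, Hspa8 was at 0.60, Pcsk1n at 0.11, Ubb at 0.35, Ndufaf4 at 1.59 and Lepr at 1.07. Of the lower genes, Dach1 was at -0.20, Fstl5 at -0.073, Grik1 at -1.06, Epha3 at -1.67 and Dach2 at -2.59, and Fam111a and Slc16a10 turned to 0.22 and 0.18. Scg2 stayed within its interval. In the 207 rapamycin and 200 vehicle neurons with at least 2 UMIs of Slc17a6, Oxt was at 0.45, Ndufa4 at 0.49, Hspa5 at 0.038, Kdm6b at 1.72 and Pcsk1n at 1.12. Maml3 was at -0.23, Caprin2 at -1.02 and Sh3bgrl at -1.57, and Rec8 turned to 0.091.

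Set side by side, few genes passed 1.5-fold in both classes. Of 7222 genes measured in both, 8 were at least 1.5-fold higher in both (0.111%), namely Pcsk1n, P4ha1, Ctdsp2, Ctsb, Zbtb16, Rpl14, 6720427I07Rik and Mtmr12. A further 2 were at least 1.5-fold lower in both (0.0277%), Pomc and Aldh6a1, and 2 were higher in GABAergic and lower in glutamatergic neurons (0.0277%), Hmcn1 and Nudt21. For comparison, 1.78% of genes measured in GABAergic and 1.25% in glutamatergic neurons were at least 1.5-fold higher, and 0.768% and 0.667% at least 1.5-fold lower. The genes named here beyond Pcsk1n, Pomc and Aldh6a1 were chosen after their values were seen. The ratio had the same sign in both classes for 55.8% of genes. Across genes, which are not independent replicates, the ratios of the 2 classes had a Pearson correlation of 0.15 and a Spearman correlation of 0.14. Among the 813 genes with at least 1000 UMIs in each class these were 0.30 and 0.26, so the ratios lay closer where counts were high. Both classes share their hashtags, so these counts are not independent of each other. The GABAergic ratio was at least 1.5 times the glutamatergic one for 194 genes (2.69%), and at most 1 over 1.5 of it for 186 (2.58%).

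Scg2 and Hspa8 were among the genes whose ratios differed most between classes, and neither difference was tested. Scg2 in glutamatergic neurons had 310 UMIs with rapamycin and 237 with vehicle, giving a log2 ratio of 0.23 (-0.02 to 0.48), or 0.91 below the GABAergic ratio (counting interval 0.49 to 1.33). Its vehicle level was 43.0 CPM in GABAergic and 82.5 CPM in glutamatergic neurons, while the rapamycin levels were 94.4 and 96.5 CPM. The classes therefore differed in the vehicle sums and were close in the rapamycin sums. Hspa8 had 157 and 129 UMIs in glutamatergic neurons, giving a log2 ratio of 0.12 (-0.22 to 0.47), which was 1.07 below the GABAergic ratio (0.54 to 1.61). Ubb in glutamatergic neurons was at a log2 ratio of 0.25 (-0.01 to 0.50), Olfm1 at 0.00 and Ube2f at -0.12. In the opposite direction, Dach2 was at 0.47 in glutamatergic neurons (-0.02 to 0.97) against -1.07 in GABAergic ones, and Dach1 at 0.02 against -0.73. Ndufa4 was at -0.43 in GABAergic neurons (-0.91 to 0.05) against 1.01 in glutamatergic ones.

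**Figure D2:**
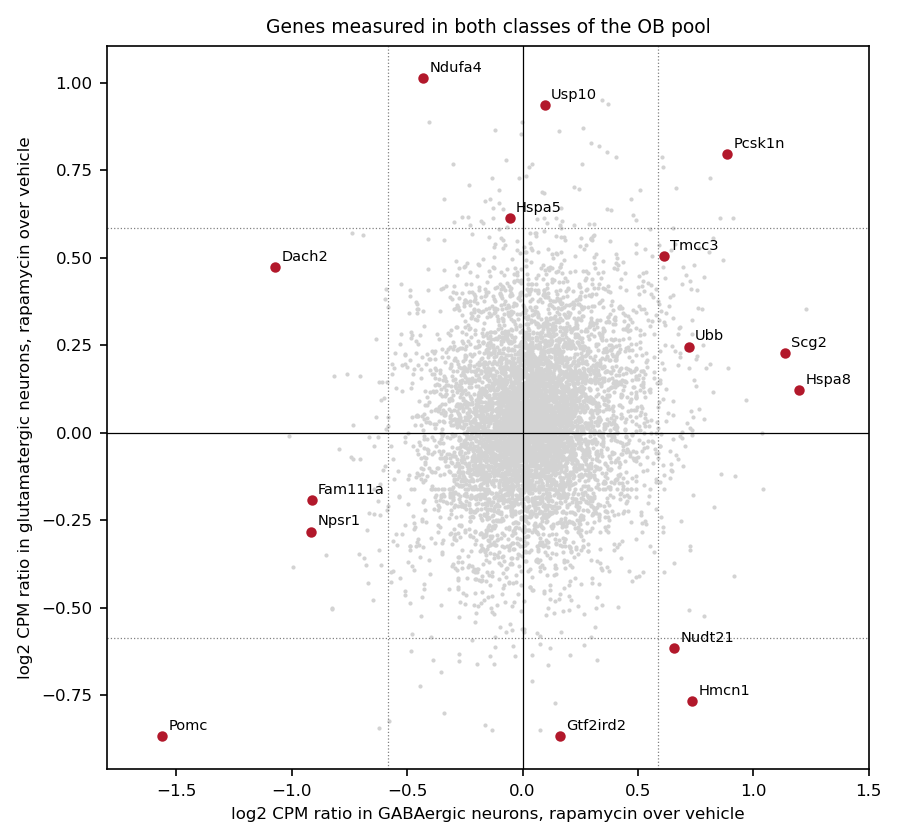
Each point is 1 of the 7222 genes measured in both classes, with the log2 CPM ratio (rapamycin over vehicle) in GABAergic neurons on the horizontal and in glutamatergic neurons on the vertical axis; dotted lines mark 1.5-fold. Pcsk1n lies past 1.5-fold in both, while Scg2 and Hspa8 lie far right near the horizontal line and Ndufa4 high and left of 0.

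The gene lists described here were read by counts and medians against all genes measured, of which 57.3% were higher with rapamycin in GABAergic and 56.4% in glutamatergic neurons. Cytosolic heat shock chaperones, which fold new and damaged proteins, were higher for 16 of 19 measured in GABAergic neurons, with a median log2 ratio of 0.16, and for 15 of 19 in glutamatergic neurons, with a median of 0.24. At 1.5-fold the list held 4 genes in GABAergic neurons, Hspa8, Hsph1 (0.65), Hsp90ab1 (0.60) and Stip1 (0.59), and 1 in glutamatergic neurons, Dnaja1 (0.62). Hsph1 had 85 UMIs with rapamycin and 38 with vehicle in GABAergic neurons, and Hsp90ab1 had 213 and 99. Hsf1, the heat shock transcription factor, was at -0.03 in GABAergic and -0.41 (-0.77 to -0.04) in glutamatergic neurons. The chaperone ratios of both classes were thus mostly positive, and Hspa8 had the highest ratio of the list in GABAergic neurons.

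Chaperones of the endoplasmic reticulum and genes of the unfolded protein response were higher for 12 of 13 measured in GABAergic neurons (median 0.30) and for 10 of 17 in glutamatergic neurons (median 0.10). The measured members were not the same genes in both, and with genes of at least 300 UMIs the GABAergic median was 0.085 over 5 genes and the glutamatergic one 0.099 over 5. Different members led in the 2 classes. Hspa5, the ER Hsp70 known as BiP, was at 26.8 CPM with rapamycin and 27.8 CPM with vehicle in GABAergic neurons, giving a log2 ratio of -0.06 (-0.57 to 0.46). In glutamatergic neurons it was at 29.3 and 19.1 CPM, giving a log2 ratio of 0.61 (0.12 to 1.12). Hsp90b1, the ER Hsp90, was at 0.30 (-0.04 to 0.64) in GABAergic and 0.55 (0.24 to 0.88) in glutamatergic neurons, and Pdia6, a disulfide isomerase, at 0.64 (0.17 to 1.13) and -0.13 (-0.57 to 0.32).

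Peptide processing and dense-core granule genes were higher for 13 of 18 measured in GABAergic neurons (median 0.08) and 10 of 18 in glutamatergic neurons (median 0.02). The members with intervals above 0 in GABAergic neurons included granule cargo and a processing enzyme. Beside Scg2 and Pcsk1n, the chromogranin genes Chgb and Chga were at 0.58 (0.07 to 1.11) and 0.57 (0.15 to 1.003), with 102 and 148 UMIs with rapamycin and 48 and 70 with vehicle, and Cpe, carboxypeptidase E, was at 0.35 (0.17 to 0.54). Intervals of the convertase genes spanned 0: Pcsk1 was at -0.44 (-0.97 to 0.09) and Pcsk2 at 0.13 (-0.01 to 0.27) in GABAergic neurons, and at -0.10 and 0.00 in glutamatergic neurons. Cadps, which primes granules for release, was at -0.16 (-0.23 to -0.08) in GABAergic neurons.

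Lists of protein synthesis and respiration lay a little above all genes or near them. Of cytosolic ribosomal protein genes, 36 of 45 measured were higher in GABAergic neurons and 36 of 49 in glutamatergic neurons, with medians of 0.16 and 0.15. Rpl13 was at 0.81 and Rpl17 at 0.81 in GABAergic neurons, against 0.20 and 0.52 in glutamatergic ones, and Rpl14 was at 0.67 and 0.70. Ribosomal protein genes have many pseudogenes, so their single values are uncertain. Translation initiation and elongation factors had medians of 0.06 and -0.0056, with 15 of 25 and 15 of 30 higher. Nuclear genes of oxidative phosphorylation were higher for 25 of 33 and 30 of 37 measured, with medians of 0.19 and 0.10. Ndufc2, a complex I subunit, led in GABAergic neurons at 0.86 and was at -0.12 in glutamatergic neurons. Mitochondrially encoded respiration genes summed to 138 CPM with rapamycin and 146 CPM with vehicle in GABAergic neurons, and to 156 and 159 CPM in glutamatergic neurons. Glycolytic genes had medians of 0.06 and 0.19, and the glutamatergic one turned to -0.19 over 6 genes in nuclei thinned to 1500 UMIs.

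For genes of the rapamycin target itself, the medians lay near 0 in both classes. Of mTORC1 and mTORC2 components and regulators, 11 of 23 measured were higher in GABAergic neurons (median -0.02) and 15 of 26 in glutamatergic neurons (median 0.04). Under the stricter class rule the GABAergic median was 0.28, and in OB neurons of neither class 26 of 33 were higher, with a median of 0.10. Mtor had 177 UMIs with rapamycin and 145 with vehicle in GABAergic neurons, giving a log2 ratio of -0.22 (-0.55 to 0.11), and 199 and 174 in glutamatergic neurons, at 0.03 (-0.27 to 0.33). Rptor, which defines mTORC1, was at -0.07 and -0.09, and Fkbp1a at 0.04 and 0.09. Deptor, an mTOR-binding inhibitor, had 109 and 46 UMIs in GABAergic neurons, giving a log2 ratio of 0.74 (0.23 to 1.27), and was at 0.32 (-0.01 to 0.66) in glutamatergic neurons. Autophagy and lysosome genes, 24 measured in GABAergic and 29 in glutamatergic neurons, summed to log2 ratios of 0.06 (0.003 to 0.12) and 0.01 (-0.045 to 0.06). In OB neurons of neither class 21 of 37 were higher, with a median of 0.03 against 0.04 for all genes measured there. The 2 genes of this list given next were picked for GABAergic intervals above 0. Sqstm1, the p62 cargo receptor, was at 0.43 (0.16 to 0.71) and 0.05. Ctsb, the protease cathepsin B, was at 0.65 (0.12 to 1.204) and 0.59 (0.11 to 1.08). Cholesterol and fatty acid synthesis genes had medians of 0.02 and -0.01, and Rps6, whose protein is phosphorylated downstream of mTORC1, was at -0.03 and 0.10.

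**Figure D3:**
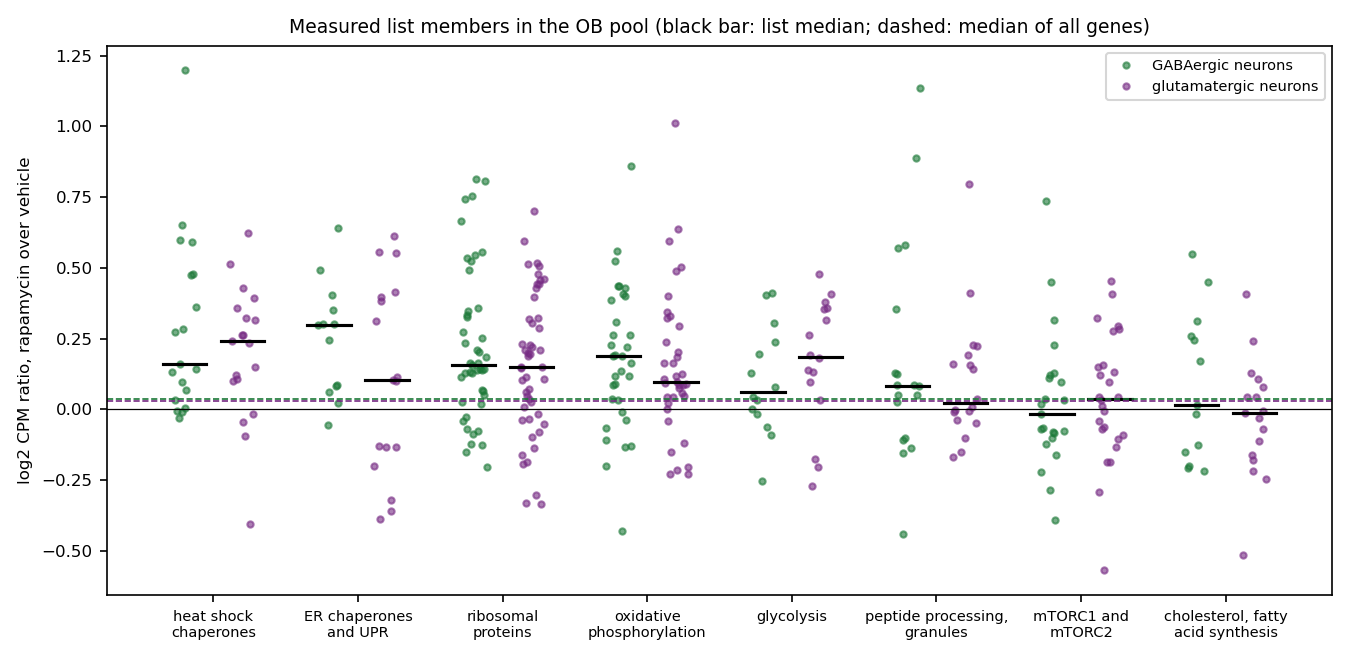
Log2 CPM ratios (rapamycin over vehicle) of the measured members of 8 gene lists, 1 point per gene, with GABAergic neurons left and glutamatergic neurons right in each pair. Black bars are list medians and dashed lines the medians of all genes measured; ER chaperones have a median of 0.30 in GABAergic and 0.10 in glutamatergic neurons (0.085 and 0.099 with genes of at least 300 UMIs), while mTOR complex genes lie around 0.

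Leptin and STAT3 signalling genes were higher for 8 of 10 measured in GABAergic neurons (median 0.16) and for 8 of 11 in glutamatergic neurons (median 0.04). Lepr, the leptin receptor that these mice keep without its ligand, was at 45.0 CPM with rapamycin and 40.03 CPM with vehicle in GABAergic neurons, giving a log2 ratio of 0.17 (-0.24 to 0.58). It was at 20.9 and 18.8 CPM in glutamatergic neurons, giving a log2 ratio of 0.15 (-0.39 to 0.69). Socs3, the feedback inhibitor induced by leptin, had 7 UMIs with rapamycin and 2 with vehicle in GABAergic neurons and 2 and 1 in glutamatergic neurons. Mc4r, the melanocortin receptor, had 8 and 0 UMIs in GABAergic neurons and 11 and 4 in glutamatergic neurons. Neither gene allowed a comparison at this depth. Among receptors for feeding signals, Hcrtr2, an orexin receptor, was at -0.56 (-0.87 to -0.25), Oprm1, the mu opioid receptor, at -0.42 (-0.66 to -0.19) and Cnr1, the cannabinoid receptor CB1, at 0.42 (0.08 to 0.77) in glutamatergic neurons. Fos, an immediate early gene, had 14 and 8 UMIs in GABAergic neurons and 12 and 6 in glutamatergic neurons.

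Of feeding peptide genes of GABAergic neurons, Agrp alone reached 100 UMIs, and the others lay below the limit for a measured gene. Npy, which drives feeding, had 74 UMIs with rapamycin and 23 with vehicle, or 25.4 and 11.2 CPM, giving a log2 ratio of 1.18 (0.49 to 1.92). Agrp, the melanocortin antagonist made by the same arcuate neurons, had 266 and 139 UMIs, or 91.3 and 67.9 CPM, giving a log2 ratio of 0.43 (0.13 to 0.73). Agrp was also at 56.0 CPM in rapamycin and 57.4 CPM in vehicle glia, which should lack it, so a level near these is read as background. Gal, galanin, had 51 and 8 UMIs, giving a log2 ratio of 2.16 (1.08 to 3.45), and Cartpt, the CART precursor, 31 and 7 UMIs, giving a log2 ratio of 1.64 (0.43 to 3.07). In glutamatergic neurons these peptides had 8 and 12 UMIs for Npy, 6 and 5 for Gal and 25 and 31 for Cartpt. Sst, somatostatin, was at 0.20 (-0.48 to 0.91) in GABAergic neurons and had 22 and 6 UMIs in glutamatergic neurons. Vip, made by suprachiasmatic neurons among others, went the other way from Npy, with 2 UMIs with rapamycin and 13 with vehicle in GABAergic neurons. Other peptide genes there went the way of Npy, with 16 and 2 UMIs of Prok2, 22 and 5 of Nts and 40 and 12 of Penk. Avp had 58 and 23 UMIs, but its 19.9 and 11.2 CPM lay below the 38.8 and 42.6 CPM of glia, so it is read as background. Hcrt, the orexin precursor, had 37 and 8 UMIs. In glia, which should lack it, Hcrt was at 37.9 CPM with rapamycin and 10.1 CPM with vehicle, so background too can differ between treatments. The part of free RNA in these peptide values was not tested. Pnoc and Tac1 had log2 ratios of -0.15 and -0.20, with intervals that spanned 0. Trh had 18 and 11 UMIs in glutamatergic neurons.

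Cluster 20, led by Npy, Corin, Fli1, Acvr1c and Calcr, held 67 of the 74 rapamycin and 16 of the 23 vehicle UMIs of Npy in GABAergic neurons. It held 78 of the 266 and 12 of the 139 UMIs of Agrp. It was singled out after these values were seen, and its own Npy is no independent finding. It held 48 rapamycin and 24 vehicle GABAergic nuclei. In these, Agrp had 78 UMIs with rapamycin and 12 with vehicle, or 412 and 121 CPM, giving a log2 ratio of 1.77 (0.88 to 2.78), and was seen in 30 of the rapamycin and 8 of the vehicle nuclei. Npy was at 354 CPM with rapamycin and 162 CPM with vehicle, giving a log2 ratio of 1.13 (0.33 to 2.02), and Lepr at 508 and 454 CPM, giving a log2 ratio of 0.16 (-0.37 to 0.70). In the same cluster of the chow pool, Agrp was at 455 and 245 CPM, giving a log2 ratio of 0.89 (0.42 to 1.37), and in DIO at 206 and 150.4 CPM, giving a log2 ratio of 0.46 (-0.16 to 1.09). The interval thus lay above 0 in OB and chow and spanned 0 in DIO, each a single pair of sums. In the other 8 GABAergic clusters of the OB pool with at least 20 nuclei per treatment, Agrp ran from 49.5 to 84.1 CPM with rapamycin and from 32.4 to 90.7 CPM with vehicle, near the level in glia.

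The sums also differed in which clusters filled them. Cluster 15, led by Npsr1 and Lef1, made up 5.69% of rapamycin GABAergic neurons (4.11 to 7.64) and 9.78% of vehicle ones (7.30 to 12.8). Cluster 7, led by Lef1, Fam19a4, Meox2 and Gal, made up 8.18% (6.29 to 10.4) and 5.09% (3.32 to 7.43). Among glutamatergic neurons, cluster 9, with Trh and Sim2 among its leading genes, made up 5.01% with rapamycin (3.54 to 6.87) and 11.0% with vehicle (8.80 to 13.6), and cluster 14, led by Ust, Bcl11b and Sox14, 8.08% (6.19 to 10.3) and 4.22% (2.84 to 5.998). With every cluster given the same weight in both treatments, the log2 ratio in GABAergic neurons was -0.59 for Npsr1, -0.67 for Epha3 and 0.43 for Tmcc3.

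Within clusters of at least 20 nuclei per treatment, Scg2, Hspa8, Pcsk1n and Ube2f were higher with rapamycin in all 9 GABAergic clusters. Tmcc3, Ubb, Sft2d3, Ndufaf4 and Mcmdc2 were higher in 8 of 9, and Fam111a was lower in all 9. For Hspa8 the cluster levels ran from 39.1 to 112 CPM with rapamycin and from 8.10 to 39.0 CPM with vehicle. The lowest rapamycin and the highest vehicle level were thus nearly equal. Hspa8 had 61 vehicle UMIs in the whole class, so its cluster levels rest on few counts. For Npsr1 the direction was mixed, with 4 clusters higher and 5 lower. Its count lay in cluster 15, at 451 CPM with rapamycin and 792 CPM with vehicle, and in cluster 7, at 114 and 467 CPM, so it was lower in both clusters that expressed it most. Dach1 was lower in 6 of 9 clusters and Epha3 in 4 of 9. In glutamatergic neurons, Rpl23a, Usp10, Ndufa4 and Tmcc3 were higher in 10 of 11 clusters and Pcsk1n in 9 of 11, while Hspa8 was higher in 6 and lower in 5, as was Hspa5. Msrb2 was lower in 10 of 11, and Aldh6a1 in 9. Pomc was higher in 7 of 11 glutamatergic clusters, against its lower summed level. The clusters share their hashtags, so they are not replicates of the treatment. Most of these genes were chosen on class sums that hold the same nuclei, so agreement between clusters follows in part from the choice. The share of all genes with such agreement was not computed.

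**Figure D4:**
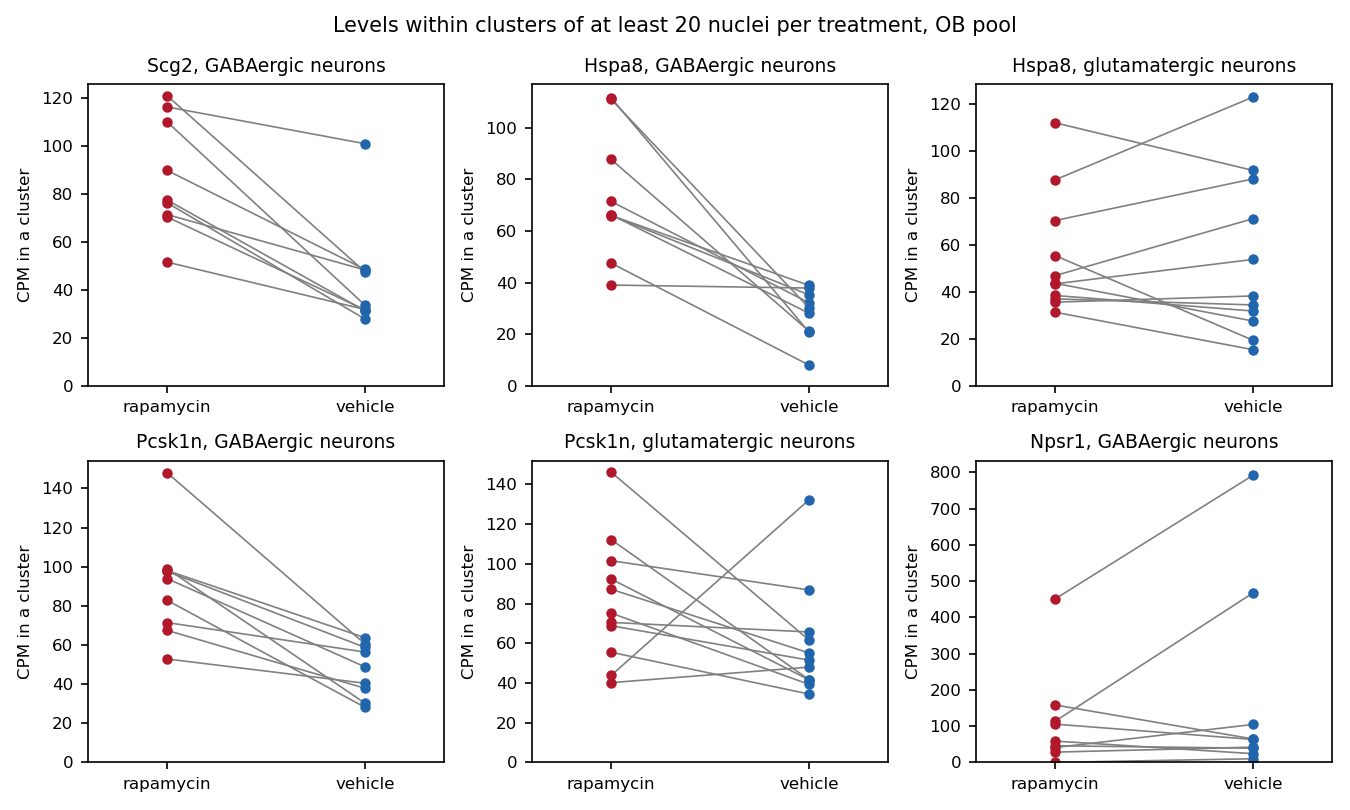
CPM of 4 genes in single clusters, rapamycin left and vehicle right; each line joins the sums of 1 cluster with at least 20 nuclei per treatment. Scg2, Hspa8 and Pcsk1n run downward to vehicle in all 9 GABAergic clusters, Hspa8 runs both ways in the 11 glutamatergic clusters, and Npsr1 is lower with rapamycin in its highest clusters. These genes were chosen on the GABAergic sums.

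OB neurons outside both classes, 2883 with rapamycin and 2655 with vehicle, were in none of these sums but carried the same hashtags. Pcsk1n stood there at 102 CPM with rapamycin and 55.6 CPM with vehicle, giving a log2 ratio of 0.88. Scg2 was at 107 and 67.4 CPM (0.66) and Hspa8 at 63.1 and 39.99 CPM (0.66), both between the ratios of the named classes. Of the 10 genes chosen as higher in GABAergic neurons, 9 were higher in the unclassed neurons, with a median of 0.48 against 0.04 for all 11730 genes measured, of which 59.6% were higher. The exception was Ube2f at -0.03. Of the 10 chosen as lower in GABAergic neurons, 9 were lower, but with a median of -0.10. Pomc was the extreme among them, with 446 and 6308 UMIs, giving a log2 ratio of -3.90 (-4.05 to -3.77). The 10 higher in glutamatergic neurons had a median of 0.22, and Oxt was at 0.19, Rpl23a at 0.08 and Ndufa4 at 0.29. Hspa5 was at 0.64, near its glutamatergic ratio. Npy was at 1.56 and Gal at 1.39. Fos had 29 and 64 UMIs, giving a log2 ratio of -1.22 (-1.91 to -0.57), the reverse of the direction of its few UMIs in both classes.

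Glia of the OB pool (astrocyte-like, oligodendrocyte-like and precursor-like clusters), 570 nuclei with rapamycin and 755 with vehicle, gave the level of a gene outside neurons. Scg2 was at 32.8 CPM with rapamycin and 34.9 CPM with vehicle there, and Ubb at 152 and 160 CPM, without the higher rapamycin level of GABAergic neurons. Pcsk1n was at 68.1 CPM with rapamycin (53.9 to 84.9) and 42.6 CPM with vehicle (32.1 to 55.5), which is in the same direction as in neurons. Hspa8 was at 99.1 and 84.5 CPM. Markers of other cells, apart from the pituitary ones above, gave sums in GABAergic neurons that differed by less than 1.5-fold, with astrocyte markers at 50.8 CPM with rapamycin and 63.0 CPM with vehicle, oligodendrocyte markers at 73.4 and 81.0 CPM, microglial markers at 186 and 152 CPM (C1qb at 0) and tanycyte markers at 91.6 and 71.3 CPM (Foxj1 at 0). Neuronal markers summed to 14278 and 14423 CPM. In glutamatergic neurons, endothelial markers were at 9.34 CPM with rapamycin and 4.53 CPM with vehicle, on 30 and 13 UMIs, and mural or fibroblast markers at 4.36 and 2.79 CPM, on 14 and 8 UMIs. The part of free RNA in the Pcsk1n values was not tested.

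**Figure D5:**
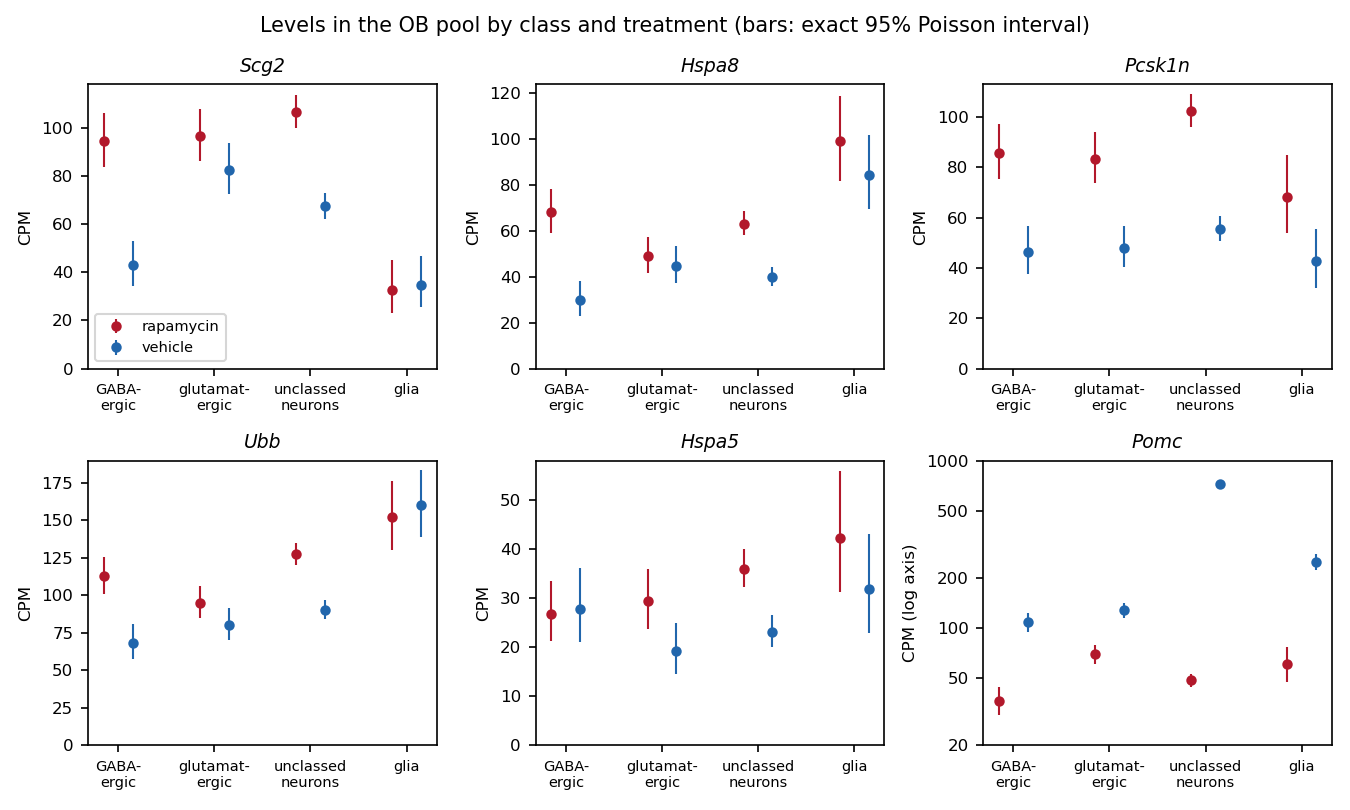
CPM of 6 genes with rapamycin (left of each pair) and vehicle, in GABAergic, glutamatergic and unclassed neurons and in glia of the OB pool; bars are exact 95% Poisson intervals and the Pomc axis is logarithmic. Pcsk1n is higher with rapamycin in all 4 kinds of nuclei, Scg2 in neurons but not in glia, and Pomc is lower in all 4.

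The same rule was applied to the other pools, whose vehicle nuclei are a separate control in each. Scg2 in GABAergic neurons had a log2 ratio of 1.14 in OB, 0.69 in DIO (0.51 to 0.88) and 0.11 in chow (-0.07 to 0.29). Pcsk1n stood at 0.89 in OB, 0.65 in DIO (0.44 to 0.86) and 0.18 in chow (-0.02 to 0.37), and in glutamatergic neurons at 0.80, 0.75 (0.54 to 0.96) and 0.00. Hspa8 in GABAergic neurons was at 1.198 in OB, 0.32 in DIO (0.11 to 0.52) and -0.19 in chow (-0.42 to 0.05). Ubb followed with 0.72, 0.33 and -0.21, and Sft2d3 with 1.23, 0.66 and -0.09. These genes were chosen for a high ratio in OB, so a higher value there than in DIO or chow follows from the choice, and the differences between pools were not tested. Tmcc3 was at 0.61 in OB GABAergic neurons and at 0.06 in DIO and 0.04 in chow, and Ube2f at 0.92, -0.02 and -0.09.

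Of the genes lower in OB GABAergic neurons, Npsr1, Dach1 and Slc16a10 had the same sign in DIO and another in chow. Dach2 had the same sign in all 3 pools, at -1.07 in OB, -0.39 in DIO and -0.19 in chow (-0.40 to 0.03). Npsr1 was at -0.92 in OB GABAergic neurons, -0.22 in DIO and 0.12 in chow, Dach1 at -0.73, -0.49 and 0.39, and Slc16a10 at -0.83, -0.67 and 0.33. In glutamatergic neurons Oxt was at 2.03, 0.90 and 0.28, Ndufa4 at 1.01, 0.40 and -0.20, and Rpl23a at 1.07, 0.44 and -0.14. Caprin2 was lower in all 3 pools, at -0.63, -0.59 and -0.46. Heat shock chaperones in GABAergic neurons had a median of 0.05 in DIO and -0.07 in chow, and ribosomal protein genes 0.17 in DIO, close to 0.16 in OB, and 0.00 in chow, against medians for all genes of 0.02 and -0.02. At least 1.5-fold higher in GABAergic neurons were 102 of 11179 genes in DIO (0.912%) and 36 of 11011 in chow (0.327%). These pools were sequenced deeper than OB. In OB 9131 of 12283 kept nuclei were in neuronal clusters, against 10222 of 10853 in chow and 10692 of 11405 in DIO. The part of depth or of non-neuronal nuclei in these counts was not tested.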

How the data were processed

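Nuclei of hypothalamus were captured with 10x chemistry and sequenced as gene expression and hashtag libraries in 3 pools (6 samples). Values in the deposited matrices are whole UMI counts that were not normalised, per the file headers made with Cell Ranger 7.0.1 for OB and 6.0.0 for chow and DIO, while the submitters' processing notes name Cell Ranger 6.0.0 and mm10. The headers differ in version, so levels were not compared between pools. Whether introns were counted is not given in the sources used here.

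Nuclei with at least 500 UMIs, 300 genes and under 5% mitochondrial UMIs were kept (12283 in OB). The 3 pools were clustered together on 3000 variable genes (40 components, 20 neighbours, resolution 1.0; scikit-learn 1.9.0, igraph 0.11.9, leidenalg 0.10.2, Python 3.11.15). This gave 54 clusters, 42 of them neuronal, with 9131 OB neurons, of which 808 had no hashtag call. The clusters counted as neuronal include cluster 44, led by Pomc and with Tbx19 of the pituitary markers, which held 87 OB nuclei. Of these, 2 vehicle nuclei were in the GABAergic sums, and 1 rapamycin and 1 vehicle nucleus in the glutamatergic sums. No doublet caller was run on gene expression; barcodes without a clear lead of 1 tag were left out, but 55 members that HTODemux marks as hashtag doublets stayed in. UMIs were summed per class and treatment and divided by their total (CPM). Intervals are exact (Clopper-Pearson on the share of UMIs for ratios, Poisson for CPM) at 95%, and were tested on simulated data. Intervals of differences between ratios are approximate. PCR copies were collapsed by UMI, and intervals cover counting error alone. No statistical test was possible with 1 sum per treatment. HTODemux (Seurat 5.3.0, R 4.3.3) and TMM scaling (edgeR 4.0.16) served as alternatives.

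Named genes were, per class, the 10 with the highest lower bound and the 10 with the lowest upper bound of the interval among genes of at least 100 UMIs, without numbered gene models and the class genes, and fixed feeding, mTOR and chaperone genes. The members, the gene lists and the rule were chosen with earlier results of these data known. Gene positions and overlaps come from RefSeq (GRCm38.p6), matched by symbol.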

Additional observations from a re-analysis of the deposited data

Results flagged for a closer look

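Values that point opposite ways in 2 groups under the same contrast were found for 3 genes past 1.5-fold in each, and none of these differences was tested. Pomc had a log2 ratio, rapamycin over vehicle, of -0.87 in OB glutamatergic neurons and 1.75 in DIO glutamatergic neurons; the OB value rests on 1 vehicle nucleus with 255 of the 367 UMIs.

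Hmcn1, an extracellular matrix gene, had 71 UMIs with rapamycin and 30 with vehicle in OB GABAergic neurons, a log2 ratio of 0.73, but 46 and 70 UMIs in OB glutamatergic neurons, a log2 ratio of -0.77. In chow glutamatergic neurons its log2 ratio was 0.63. Nudt21, a subunit of the cleavage factor that sets polyadenylation sites, had 101 and 45 UMIs in OB GABAergic neurons, a log2 ratio of 0.66, and 73 and 100 UMIs in OB glutamatergic neurons, a log2 ratio of -0.61. Hmcn1 and Nudt21 were singled out after their values were seen. Only 2 of 7222 genes (0.0277%) were at least 1.5-fold higher in GABAergic and at least 1.5-fold lower in glutamatergic neurons. The reverse was found for 0 genes. These counts use the cut in each class, not the distance between the ratios.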

How the results depend on the processing

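Under the 11 alternatives that can move a gene's own ratio, 546 of 605 values of named genes stayed within their main interval, 52 moved out of it and 7 past 1.5-fold turned sign. The stricter class rule alone left 26 of 55 in place, moved 25 and turned 4. Of 538 list medians 525 stayed and 13 moved. The counts past 1.5-fold were 186 genes in GABAergic (130 higher, 56 lower) and 155 in glutamatergic neurons (101 and 54). With HTODemux calls (749 rapamycin and 207 vehicle nuclei) the GABAergic count was 308 (221 and 87). Under the stricter class rule the counts were 91 (58 and 33) and 90 (65 and 25), with genes of at least 50 UMIs 556 (383 and 173) and 517 (303 and 214), of at least 300 UMIs 15 (11 and 4) and 10 (6 and 4), with no filter 6701 (3772 and 2929) and 6738 (3484 and 3254), and in nuclei thinned to 1500 UMIs 87 (62 and 25) and 76 (41 and 35). The class and list pairs at least 0.1 from the median of all genes numbered 31 with no filter instead of 10. Values past 1.5-fold that turned sign under the stricter rule were Fam111a at 0.22 and Slc16a10 at 0.18 in GABAergic and Pomc at 0.066 and Rec8 at 0.091 in glutamatergic neurons. Smaller values turned too, among them GABAergic Pcsk2 at -0.31 and Rptor at 0.26 and glutamatergic Hspa8 at -0.28 and Lepr at -0.60. Glutamatergic Pomc also turned to 0.53 with equal cluster weights, 0.48 without the Pax7 cluster and 0.84 without the nucleus with most UMIs; the last 2 were chosen after seeing the data. Apart from fewer UMIs and nuclei, the cause was not tested. No paired analysis was possible because each treatment is 1 hashtag sum in a pool, and for the same reason no replicate could be left out.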
